A study of Arabidopsis thaliana with 4 samples.

Results

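The comparison described here is that of sfr6 plants after 3 h of darkness with sfr6 plants kept in the light, 2 of the 4 arrays of an Arabidopsis thaliana experiment. sfr6 is a freezing-sensitive mutant obtained by EMS (chemical) mutagenesis in the Col-0 background. The 2 arrays were chosen by their labels, which give genotype and treatment, and every probe set with a usable signal was then kept. Of 22746 probe sets that are not controls, 14564 reached the detection floor in sfr6 dark, in sfr6 light or in both, and these represent 7802 genes with a single gene name.

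The 4 groups were sfr6 dark, sfr6 light, wild type (Col-0) dark and wild type light, with 1 array each. Per the labels, all plants grew for 7 days on agar and then spent 24 h in a bright cabinet of 240 microEinsteins with 16 h of light and 8 h of dark a day. Dark plants were then wrapped in foil for 3 h, and light plants stayed uncovered in the cabinet for the same 3 h. In the labels the tissue field reads cell culture, although the treatment text speaks of plants on plates. Transcripts of green tissue were bright in sfr6, with RCA (rubisco activase) at 3043 in sfr6 dark and 3384 in sfr6 light and the antenna gene LHCB4.1 at 2747 in sfr6 dark and 3177 in sfr6 light. The root-expressed beta-glucosidase PYK10 read 1823 in sfr6 dark and 2562 in sfr6 light, and the root hair expansin EXPA7 read 28.4 in sfr6 dark and 54.6 in sfr6 light. These markers of green and root tissue were therefore over the floor on both sfr6 arrays. A further root marker, EXPA18, read 13.5 in sfr6 dark, under the floor, and 42.2 in sfr6 light.

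A plant moved into darkness loses photosynthetic sugar supply within hours. In Arabidopsis the SnRK1 kinase and its bZIP partners are known to turn on starvation genes, among them enzymes that burn branched-chain amino acids in mitochondria and components of autophagy, while growth, wall loosening and light-driven pigment synthesis are turned down. SFR6 encodes MED16, a tail subunit of Mediator (the co-activator complex between DNA-bound factors and RNA polymerase II), and is best known for its need in cold-induced gene expression. No probe set is named for SFR6 here, and the gene is not analysed here.

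Signals are MAS5 intensities on a linear scale, and a signal can be compared between arrays for 1 probe set but not between probe sets. Signals under 22.1, the 40th percentile of all signals, were set to that floor, and a fold against such a signal is written as "at least". With 1 array per group the sfr6 comparison has no test, and a gene is called higher or lower in sfr6 dark from a 2-fold difference. A test exists only for the average dark effect over both genotypes, which limma fits on all 4 arrays with 1 residual degree of freedom. In what follows "rose" and "fell" refer to that average at an adjusted p under 0.05, and the test does not stand for sfr6 alone. The labels do not say that the plants of different groups came from separate sowings.

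Over 18 bacterial and phage spike-in control probe sets the sfr6 dark minus light difference had a median of -0.02 on the log2 scale (SD 0.25). The control for 25S rRNA had signals of 1321.3 in sfr6 dark and 119.8 in sfr6 light, an 11-fold difference, against 364 in wild type dark and 122 in wild type light. The 6 actin control probe sets gave sfr6 dark over light ratios between 0.584 and 0.699, the 5 GAPDH ones between 0.672 and 0.749, and the 5 ubiquitin ones between 0.693 and 0.881. In wild type the ratios were 0.673 to 0.734 for actin, 0.613 to 0.731 for GAPDH and 0.717 to 0.958 for ubiquitin. The part of these control differences in the results below was not tested. In whole plants, fewer cells of a type and less RNA per cell cannot be told apart.

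In sfr6, darkness went with a signal at least 2-fold higher for 544 of 7802 named genes (6.97%) and at least 2-fold lower for 472 (6.05%), 13% in all. Among probe sets with or without a gene name, 998 of 14564 (6.85%) were higher and 1001 (6.87%) were lower. That balance depended on the floor: with it at the 20th percentile 1232 probe sets were higher and 1665 lower, and at the 60th percentile 694 were higher and 523 lower. With the main floor, 92 named genes were at least 4-fold higher against 64 lower, and 22 were at least 8-fold higher against 10 lower. Beyond 16-fold there were 3 in each direction. The median difference of all measured named genes was -0.03 on the log2 scale with an SD of 0.72. Among probe sets, 9.72% of the brightest 3641 were higher and 5.71% lower, whereas 2.58% of the dimmest 3641 were higher and 4.86% lower. Probe sets that were over the floor in sfr6 light alone numbered 1177, against 558 in sfr6 dark alone. For the average over both genotypes, limma called 1215 of the 7802 genes risen (15.6%) and 1299 fallen (16.6%), and 2325 (15.4%) and 2684 (17.8%) of 15121 probe sets.

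**Figure D1:**
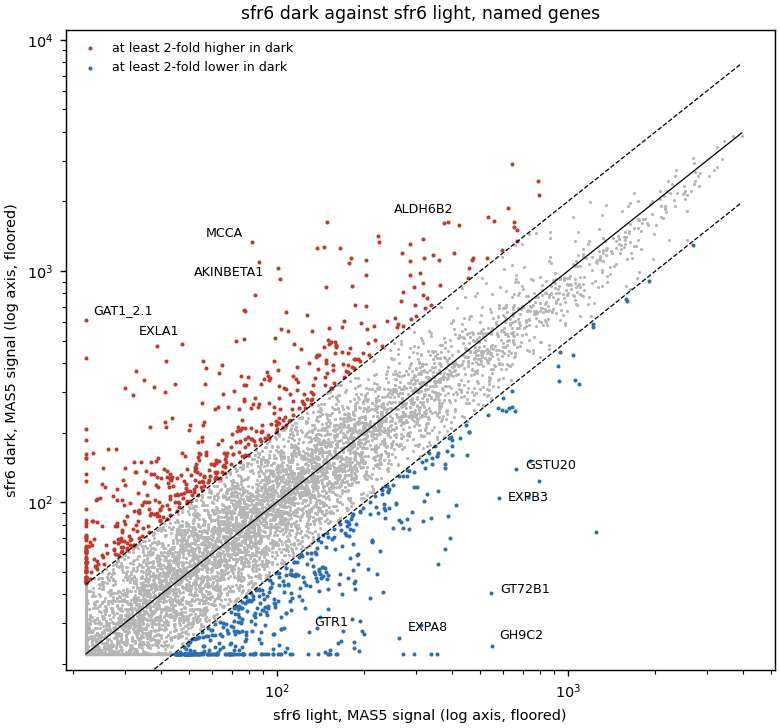
MAS5 signals of 7802 named genes in sfr6 dark (vertical) against sfr6 light (horizontal), both on log axes with signals under the floor drawn at the floor; the solid line marks equal signals and the dashed lines 2-fold differences. The 544 red genes lie above the upper dashed line and the 472 blue ones below the lower one, with MCCA and GAT1_2.1 far above and GH9C2 and GT72B1 far below.

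The 20 named genes with the largest increases in sfr6, among those with at least 100 signal units on the brighter array, included 4 with a gene symbol and 16 known by locus alone. GAT1_2.1, a glutamine amidotransferase gene, read 617 in sfr6 dark and 9.56 in sfr6 light, at least 27.9-fold higher in dark. MCCA, the biotin-carrying subunit of the methylcrotonyl-CoA carboxylase of leucine breakdown, read 1330.2 in sfr6 dark and 82.3 in sfr6 light, which is 16.2-fold higher. EXLA1, an expansin-like wall protein gene, read 473 in sfr6 dark and 38.8 in sfr6 light, 12.2-fold higher. The fourth symbol was AKINBETA1, a beta subunit of SnRK1, with 921 in sfr6 dark and 103 in sfr6 light (8.98-fold higher). Of the 4 genes with a symbol, AKINBETA1 thus had the smallest difference. Of the locus-only genes, AT5G61590, listed under the synonym DEWAX (an AP2/ERF factor that represses wax synthesis), read 1256 in sfr6 dark and 138 in sfr6 light (9.12-fold higher). AT1G25400 read 420.5 in sfr6 dark and 17.8 in sfr6 light (at least 19.0-fold higher) and AT3G15630 read 1099.9 in sfr6 dark and 87.2 in sfr6 light (12.6-fold higher). AT3G45730 read 208 in sfr6 dark and 6.07 in sfr6 light (at least 9.42-fold higher). The other 12 (AT3G59350, AT2G20670, AT1G19530, AT1G02660, AT2G30600, AT2G25200, AT1G22570, AT3G10020, AT1G22890, AT1G54740, AT4G27450 and AT3G49790) were between 8.65-fold and 11.2-fold higher. AT2G30600 is 1 of 83 genes with several probe sets, and its 2 probe sets gave 3.35 and 3.19 on the log2 scale.

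All 20 genes passed the limma test of the average dark effect, and their average effects on the log2 scale lay between 2.53 and 4.93. That average includes the sfr6 values on which the 20 were ranked. All 92 named genes at least 4-fold higher in sfr6 passed too, so the pass is no separate support. For GAT1_2.1 the average was 4.45 ± 0.19 (SE, limma adjusted p = 0.00014) and for MCCA it was 3.57 ± 0.21 (SE, limma adjusted p = 0.00029). All 20 were also at least 2-fold higher in wild type, with wild-type log2 differences between 1.85 and 5.61. In the light, 18 of the 20 had a lower floored signal in sfr6 than in wild type, by a median of -1.29 on the log2 scale, against 3507 of the 7802 measured genes. In the dark, 19 of the 20 had a lower signal in sfr6, by a median of -0.54, against 3083 of the 7802. MCCA, for example, stood at 2095 in wild type dark and 239.9 in wild type light, both above its sfr6 counterparts. The 20 were ranked on the sfr6 difference itself, so a low sfr6 light signal favoured their choice.

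The 20 largest decreases included 6 genes with a symbol. GH9C2, of the endoglucanase (cellulase) family, read 23.8 in sfr6 dark and 550.1 in sfr6 light, 23.1-fold lower in dark. GT72B1 (UGT72B1), a glucosyltransferase that conjugates monolignols and foreign phenolics, read 40.4 in sfr6 dark and 545 in sfr6 light, 13.5-fold lower. The alpha-expansin gene EXPA8 read 25.8 in sfr6 dark and 263 in sfr6 light, 10.2-fold lower. Of the 6 genes with a symbol, the 3 with the largest decreases thus encode 2 wall proteins and a conjugating enzyme. COR15A, a cold-induced chloroplast protein that protects membranes in freezing, read 24.9 in sfr6 dark and 184 in sfr6 light, 7.36-fold lower. GI (GIGANTEA), a clock and flowering gene, read 17.6 in sfr6 dark and 160.4 in sfr6 light, at least 7.25-fold lower. GTR1 (NPF2.10), a glucosinolate transporter, read 27.7 in sfr6 dark and 196 in sfr6 light, 7.08-fold lower.

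Of the 14 locus-only genes, AT1G73600 read 74.3 in sfr6 dark and 1247 in sfr6 light (16.8-fold lower). AT3G44450 read 16.1 in sfr6 dark and 355 in sfr6 light (at least 16.1-fold lower), and AT2G27420 read 10.3 in sfr6 dark and 338 in sfr6 light (at least 15.3-fold lower). The other 11 (AT1G60590, AT5G15950, AT1G47400, AT3G52740, AT5G42760, AT1G57590, AT1G67750, AT3G09440, AT1G06000, AT5G62210 and AT5G01790) were between at least 6.79-fold and at least 13.4-fold lower. For 9 of the 20 the dark signal lay under the floor. All 20 passed the limma test of the average, which includes the sfr6 values on which they were ranked. All 64 named genes at least 4-fold lower in sfr6 passed too, so the pass is no separate support. All 20 were at least 2-fold lower in wild type as well. The closest to that limit was AT1G47400, 10.6-fold lower in sfr6 (29.5 in sfr6 dark and 313 in sfr6 light) and at least 2.58-fold lower in wild type (10.2 in wild type dark and 57.1 in wild type light). For GH9C2 the average log2 effect was -4.08 ± 0.24 (SE, limma adjusted p = 0.00029).

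**Figure D2:**
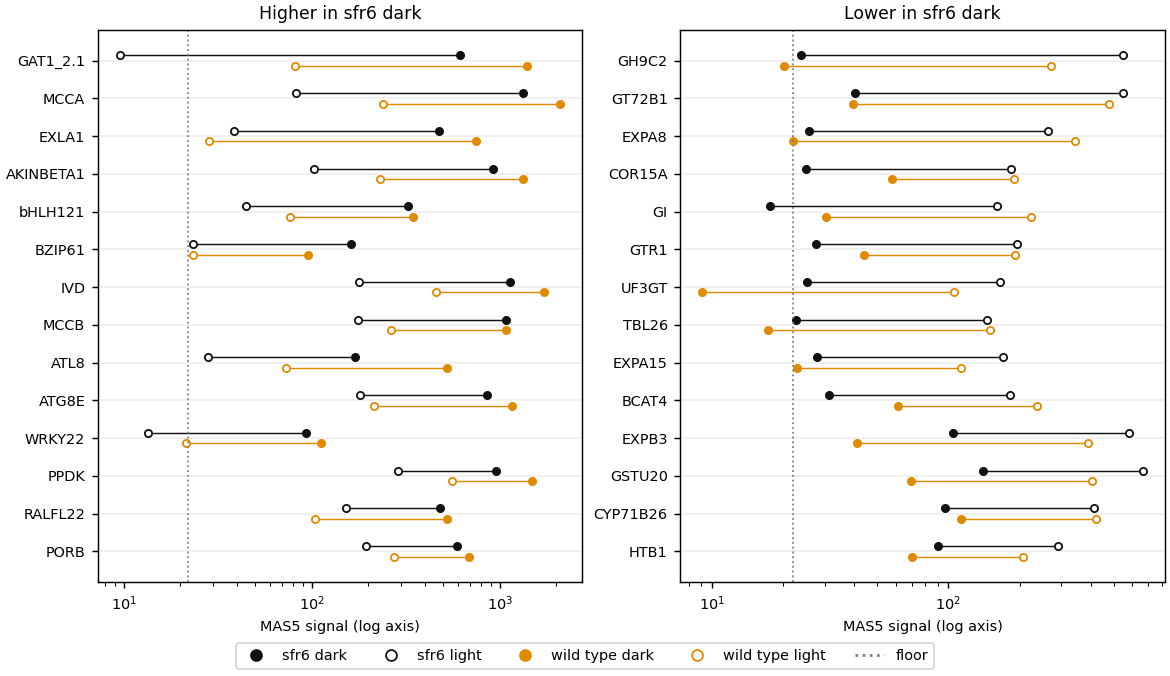
MAS5 signals (log axis) of 14 genes higher and 14 genes lower in sfr6 dark, with filled points for dark, open points for light, black for sfr6 and orange for wild type; the dotted line is the floor. Each gene's dark point lies on the same side of its light point in both genotypes, and the sfr6 light points of MCCA, GAT1_2.1 and AKINBETA1 lie left of the wild-type ones.

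To describe pathways, 41 gene lists and families were read against these backgrounds. They were chosen with earlier results of these data known, and some were corrected after values were seen. Their order is therefore a description and no separate evidence for a pathway. They hold 606 of the 7802 measured genes, since 6676 of those genes are listed by locus alone. The energy deprivation list had the highest median, 2.88 on the log2 scale with 4 of 4 measured members higher. The next was amino acid breakdown at 1.87. At the other end stood flavonoid synthesis at -1.35, glucosinolates at -1.31 and the cold-regulated list at -0.95. The cold-regulated value is that of LEA4-5, whose dark signal lay under the floor. With the floor at the 60th percentile the cold-regulated median was 0 and the glucosinolate median -0.69. Some lists of the basic machinery (chloroplast-encoded photosynthesis, ubiquitin and proteasome, cytoskeleton, Mediator and RNA polymerase) had medians within 0.05 of 0. The median of all measured named genes was -0.03. Other such lists lay farther below 0, with -0.12 for respiration, -0.14 for nuclear photosynthesis, -0.29 for chaperones and -0.46 for cell division and histones.

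**Figure D3:**
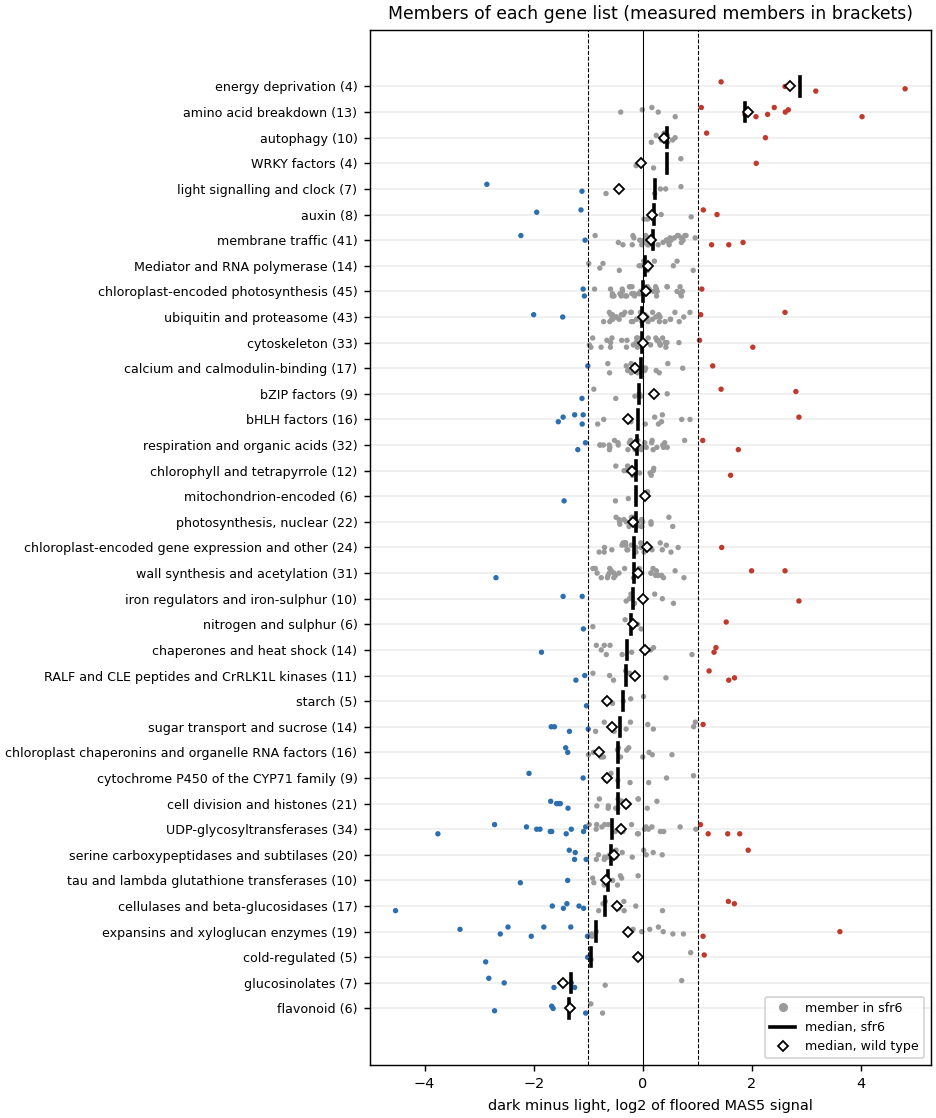
Dark minus light difference in sfr6 (log2) for each measured member of the lists with 4 or more such members, ordered by the sfr6 median (black bar); diamonds are wild-type medians, and dashed lines mark 2-fold. Energy deprivation (2.88) and amino acid breakdown (1.87) stand to the right, flavonoid (-1.35) and glucosinolates (-1.31) to the left. The cold-regulated medians, -0.95 in sfr6 and -0.10 in wild type, are values of different genes, LEA4-5 and COR15B. LEA4-5 itself gave -0.95 in sfr6 and -0.86 in wild type. The median over the list of sfr6 minus wild-type differences was -0.09.

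The energy deprivation list comprised AKINBETA1 and GAT1_2.1 (above), ATL8 and BZIP53. ATL8, a RING-type ubiquitin ligase gene used as a sugar starvation marker, read 171 in sfr6 dark and 28.1 in sfr6 light (6.07-fold higher). BZIP53, a bZIP factor that pairs with the starvation-linked C-group bZIPs, read 581 in sfr6 dark and 215 in sfr6 light (2.70-fold higher). All 4 rose on average by limma. The sfr6 signal was below the wild-type signal for each of the 4, both in the light and in the dark.

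Of 13 measured genes of amino acid breakdown, 8 were at least 2-fold higher and none lower, and the same 8 rose on average by limma. The leucine pathway was represented by MCCA, by its partner subunit MCCB and by IVD, the isovaleryl-CoA dehydrogenase that acts just before it. MCCB read 1079 in sfr6 dark and 177 in sfr6 light (6.10-fold higher), and IVD read 1138 in sfr6 dark and 179.5 in sfr6 light (6.34-fold higher). ALDH6B2, the methylmalonate semialdehyde dehydrogenase of valine breakdown, had 1631 in sfr6 dark and 388 in sfr6 light (4.2-fold higher). All 3 enzymes act in mitochondria. AT4G33150, listed under the synonym LKR/SDH and so encoding the first enzyme of lysine breakdown, read 269 in sfr6 dark and 55.3 in sfr6 light (4.87-fold higher). ETFQO, which passes the electrons of these dehydrogenases to ubiquinone, read 346 in sfr6 dark and 94.7 in sfr6 light (3.65-fold higher). Its electron donors ETFALPHA and ETFBETA differed by 0.28 and 0.16 on the log2 scale and did not pass the test. Thus the oxidoreductase was 2-fold higher and the carrier subunits were not. The asparaginase gene ASPGB1 read 231 in sfr6 dark and 43.6 in sfr6 light (5.30-fold higher), while its paralogue ASPGA1 read 111 in sfr6 dark and 147 in sfr6 light. MGL, the methionine gamma-lyase, was the smallest of the 8 with 177 in sfr6 dark and 84.4 in sfr6 light (2.1-fold higher) and read 455 in wild type dark and 91.4 in wild type light. The remaining 2 members, DELTA-OAT and D2HGDH, gave 0.59 and -0.01.

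Autophagy members gave smaller differences in 1 direction. All 10 measured members were above 0 in sfr6, 2 of them at least 2-fold, and 5 rose on average by limma. ATG8E, a ubiquitin-like protein of autophagosome membranes, read 861 in sfr6 dark and 182 in sfr6 light (4.74-fold higher), and its relative ATG8F read 1498 in sfr6 dark and 668 in sfr6 light (2.24-fold higher). The other 7 members of the ATG8 family lay between 0.15 (ATG8D) and 0.59 (APG8H) on the log2 scale. ATG3, the conjugating enzyme that attaches ATG8 to lipid, gave 0.39. Of the 3 measured genes of purine breakdown, ALN (allantoinase) gave 0.97 and AAH (allantoate amidohydrolase) 0.62, while the wild-type values were 0.25 and 0.02. UGLYAH, which acts after them, read 15.3 in sfr6 dark and 29.8 in sfr6 light, under the floor in dark, and none of the 3 passed the test.

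Of 32 measured genes of central respiration, 2 were higher and 2 lower in sfr6 dark, a share near the 13% of all named genes. By limma 4 rose and 10 fell. PPDK, the pyruvate orthophosphate dikinase, read 962 in sfr6 dark and 286 in sfr6 light (3.36-fold higher). ACLA-3, a subunit of the ATP-citrate lyase that supplies cytosolic acetyl-CoA, read 641 in sfr6 dark and 300.0 in sfr6 light (2.14-fold higher). NDB2, an alternative NAD(P)H dehydrogenase of the mitochondrial inner membrane, read 59.6 in sfr6 dark and 136 in sfr6 light (2.29-fold lower), and PGM, a phosphoglycerate mutase gene, read 18.4 in sfr6 dark and 45.9 in sfr6 light (at least 2.07-fold lower). The 8 genes of succinate dehydrogenase, NAD-dependent isocitrate dehydrogenase and cytochrome c lay between -0.72 and 0.03, 7 of them below 0. FRO1 (FROSTBITE1), a complex I subunit whose mutant is also impaired in cold-induced expression, read 624 in sfr6 dark and 856 in sfr6 light.

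In carbohydrate storage and transport, decreases outnumbered increases with the main floor. Of 5 measured starch genes, APL3, a large subunit of the ADP-glucose pyrophosphorylase of starch synthesis, was lower with 14.5 in sfr6 dark and 45.3 in sfr6 light (at least 2.05-fold lower), and the others lay between -0.56 (the glucan water dikinase PWD, AT5G26570) and at least 0.01 (AT4G24450, listed under the same symbol and under the floor in light). Of 14 sugar transport and sucrose genes, 1 was higher and 4 were lower, and by limma 2 rose and 6 fell. The SWEET proteins are sugar uniporters of plasma membrane or tonoplast, and their 8 measured genes ranged from -1.68 to 1.10. SAG29 (SWEET15) read 16.7 in sfr6 dark and 70.8 in sfr6 light (at least 3.20-fold lower), and SWEET13 read 18.1 in sfr6 dark and 68.0 in sfr6 light (at least 3.07-fold lower). SWEET4 read 22.9 in sfr6 dark and 58.3 in sfr6 light (2.54-fold lower in sfr6), against 36.1 in wild type dark and 31.6 in wild type light. SWEET17, a vacuolar fructose transporter, read 175 in sfr6 dark and 351 in sfr6 light, 2.00-fold lower in both genotypes. SWEET2, also of the tonoplast, was the 1 member higher, with 619 in sfr6 dark and 289 in sfr6 light (2.15-fold higher). The tonoplast sugar importers differed in sign, TMT1 at 0.93 and TMT2 at -0.71 on the log2 scale. With the floor at the 60th percentile APL3 gave 0, SAG29 -0.29, SWEET13 -0.23 and SWEET4 -0.01, all under 2-fold, while SWEET2 stayed at 1.10. The sugar transport and sucrose median was -0.12 there, against -0.42 in the main setting.

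Of the 7 measured light signalling and clock genes, 2 were lower and none higher. Beside GI, HYH, the homologue of the photomorphogenesis factor HY5, read 63.1 in sfr6 dark and 137 in sfr6 light (2.17-fold lower). AFR, an F-box gene of far-red signalling, gave -0.68, and the clock-associated genes TIC, FIO1, XCT and LIP1 gave 0.21, 0.32, 0.42 and 0.70. By limma GI, HYH and AFR fell and LIP1 rose.

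Of 6 measured flavonoid genes, 4 were at least 2-fold lower and none higher, and the same 4 fell on average by limma. All 6 were below 0. All 4 are late steps or accessory proteins. UF3GT (UGT79B1), a glycosyltransferase of anthocyanin decoration, read 25.2 in sfr6 dark and 166 in sfr6 light (6.58-fold lower). UGT78D1 and UGT78D2, which attach rhamnose and glucose to flavonols, read 59.6 in sfr6 dark and 189.8 in sfr6 light and 101 in sfr6 dark and 208 in sfr6 light (3.18-fold and 2.07-fold lower). CHIL, a chalcone isomerase-like protein that aids the first steps, read 83.9 in sfr6 dark and 262 in sfr6 light (3.13-fold lower). DFR, the dihydroflavonol reductase that leads to anthocyanins, read 110.3 in sfr6 dark and 214 in sfr6 light, whereas it read 84.2 in wild type dark and 60.9 in wild type light. Its sfr6 difference of -0.95 thus stands against 0.47 in wild type, a difference that was not tested. AT5MAT, an anthocyanin malonyltransferase gene, was over the floor only in sfr6 light, at 36.9.

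Of 12 chlorophyll and tetrapyrrole genes, only PORB, the light-dependent protochlorophyllide oxidoreductase B, differed by 2-fold, with 594 in sfr6 dark and 195 in sfr6 light (3.04-fold higher, average log2 effect 1.46 ± 0.12 SE, limma adjusted p = 0.00069). The other 11 lay between -0.50 (GSA1, a glutamate semialdehyde aminomutase) and 0.20 (HEMB1, a porphobilinogen synthase gene). None of the 22 nuclear photosynthesis genes differed by 2-fold in sfr6, and 18 were below 0. Their range ran from -0.49 for PGRL1B, of cyclic electron flow, to 0.55 for NdhS, a subunit of the chloroplast NAD(P)H dehydrogenase-like complex. By limma 6 of them fell and 1 rose. The 3 LHCB4 antenna genes lay between -0.35 and 0.15.

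Chloroplast-encoded transcripts were measured for 45 photosynthesis genes and for 24 genes of gene expression and other functions. In sfr6 their medians were 0.00 and -0.17, against 0.05 and 0.08 in wild type. Among the photosynthesis genes 1 was higher and 2 were lower by 2-fold in sfr6, where 13% of all named genes differed by 2-fold. ndhJ, of the NAD(P)H dehydrogenase-like complex, read 302 in sfr6 dark and 644 in sfr6 light (2.14-fold lower), against 317 in wild type dark and 312 in wild type light. psbD, which encodes the photosystem II reaction centre protein D2, read 448 in sfr6 dark and 943 in sfr6 light (2.1-fold lower), against 813 in wild type dark and 761 in wild type light. psbC, an inner antenna gene of photosystem II that is cotranscribed with psbD, gave -0.89 in sfr6 and -0.15 in wild type. Both genes of this pair were thus lower in sfr6 dark, 2.1-fold and 1.85-fold, and lay near 0 in wild type. petG, a small cytochrome b6f subunit, was higher with 147 in sfr6 dark and 69.5 in sfr6 light (2.11-fold), and psbE and psbF, for the subunits of cytochrome b559, gave 0.72 and 0.68.

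For chloroplast-encoded subunits the sfr6 median was -0.20 in photosystem I (5 genes), 0.06 in photosystem II (15 genes), -0.12 in cytochrome b6f (6 genes), -0.05 in ATP synthase (6 genes) and 0.09 in the NDH complex (10 genes). The photosystem II genes spread from -1.07 to 0.72 in sfr6 but from -0.29 to 0.31 in wild type. The 7 large ribosomal protein genes had a median of -0.21 in sfr6, from -0.80 to 0.65, whereas all 7 lay at 0.01 or above in wild type. rps14, for a small ribosomal protein, read 60.1 in sfr6 dark and 21.4 in sfr6 light (at least 2.72-fold higher), against 54.5 in wild type dark and 100.2 in wild type light. Among 6 measured mitochondrial genes, nad4, a complex I subunit, read 51.3 in sfr6 dark and 139.6 in sfr6 light (2.72-fold lower), against 95.2 in wild type dark and 78.2 in wild type light. The 25S ribosomal RNA control was 11-fold higher in sfr6 dark and 3.00-fold higher in wild type dark, and the part of ribosomal or organelle RNA content in these values was not tested. The labels do not give the priming of the labelling reaction.

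**Figure D4:**
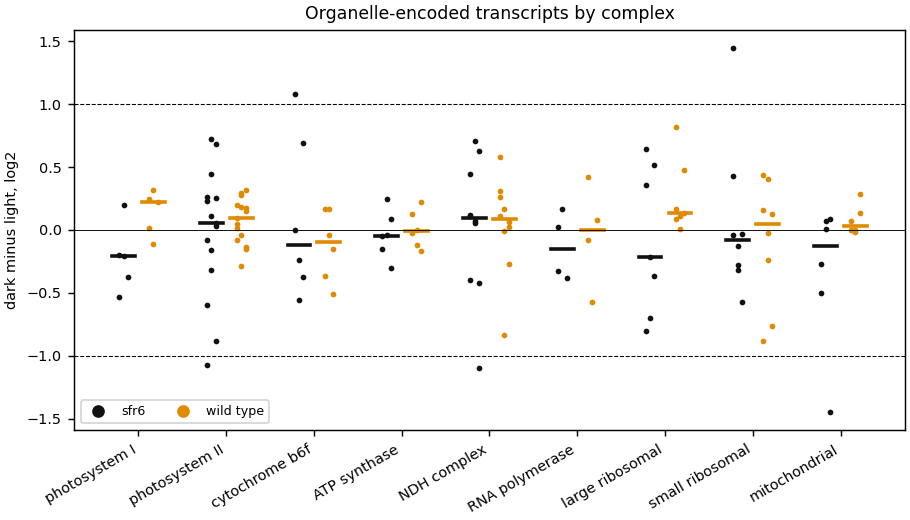
Dark minus light difference (log2) of organelle-encoded transcripts by complex, sfr6 in black left of wild type in orange, with a bar for each median and dashed lines at 2-fold. The photosystem II points run from -1.07 to 0.72 in sfr6 and from -0.29 to 0.31 in wild type.

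Of 16 nuclear genes for chloroplast protein folding and organelle RNA processing, 2 were at least 2-fold lower in sfr6 and none higher. That share is near the 13% of all named genes that differed by 2-fold. By limma 9 fell and none rose, where 16.6% of all named genes fell and 15.6% rose. In sfr6 13 of the 16 were below 0. Cpn60beta2, a subunit of the chloroplast chaperonin that folds rubisco, read 247 in sfr6 dark and 658 in sfr6 light (2.67-fold lower), and its relative Cpn60beta4 had a log2 difference of -0.47. A further relative, Cpn60beta3, read 53.3 in sfr6 dark and 106 in sfr6 light, just short of 2-fold. CFM3B, a CRM-domain splicing factor, read 23.6 in sfr6 dark and 61.4 in sfr6 light (2.60-fold lower). CRR42 and LPA66, needed for chloroplast complexes, gave -0.91 and -0.77.

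Of 19 measured expansin and xyloglucan enzyme genes, 7 were lower and 2 higher in sfr6 dark, and by limma 9 fell and 3 rose. A further 9 named members did not reach the floor in sfr6. Expansins loosen walls during cell growth, and 4 of the 8 alpha-expansins were at least 2-fold lower, with a median of -0.98. After EXPA8 came EXPA15 with 27.7 in sfr6 dark and 169 in sfr6 light (6.12-fold lower) and EXPA4 with 77.1 in sfr6 dark and 271 in sfr6 light (3.52-fold lower). EXPA9 read 38.9 in sfr6 dark and 78.6 in sfr6 light (2.02-fold lower). The beta-expansin gene EXPB3 read 105 in sfr6 dark and 581 in sfr6 light (5.55-fold lower). XTH enzymes cut and rejoin xyloglucan, and XTH19 read 21.3 in sfr6 dark and 91.3 in sfr6 light (at least 4.13-fold lower), and XTH32 read 258 in sfr6 dark and 644 in sfr6 light (2.50-fold lower). Against these stood EXLA1 and the xyloglucan enzyme gene EXGT-A3 (XTH27), which had 1136 in sfr6 dark and 529 in sfr6 light (2.15-fold higher). XTH18 separated the genotypes, at 39.4 in sfr6 dark and 44.7 in sfr6 light and at 158 in wild type dark and 42.2 in wild type light.

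Of 17 measured cellulase and beta-glucosidase genes, 6 were lower and 2 higher. All 5 measured GH9 genes were below 0, with GH9B8 at 5.91 in sfr6 dark and 60.7 in sfr6 light (at least 2.74-fold lower) and GH9B13 at 29.0 in sfr6 dark and 65.3 in sfr6 light (2.25-fold lower) after GH9C2. Of 11 beta-glucosidase genes with a median of -0.44, BGLU40 read 67.5 in sfr6 dark and 213 in sfr6 light (3.16-fold lower) and BGLU44 read 114 in sfr6 dark and 243 in sfr6 light (2.12-fold lower). BGLU28, whose product is linked to glucosinolate turnover under sulphur shortage, read 3.39 in sfr6 dark and 58.1 in sfr6 light (at least 2.63-fold lower). BGLU16 was higher with 313 in sfr6 dark and 106 in sfr6 light (2.96-fold higher), and BGLU46, a monolignol glucosidase gene, with 70.6 in sfr6 dark and 22.1 in sfr6 light (at least 3.19-fold higher). Wall synthesis and acetylation genes had a median of -0.17, and 28 of 31 lay within 2-fold, near the background in which 13% of named genes lie outside it. The exceptions were TBL26 at 22.6 in sfr6 dark and 146 in sfr6 light (6.46-fold lower), TBL45 at 394 in sfr6 dark and 64.8 in sfr6 light (6.08-fold higher) and CSLA03, a glucomannan synthase gene, at 156 in sfr6 dark and 39.1 in sfr6 light (3.97-fold higher). TBL proteins acetylate wall polymers, and the 2 members with the largest differences ran in opposite directions.

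UDP-glycosyltransferases, which attach sugars to hormones and secondary metabolites, were lower in 11 of 34 measured members and higher in 4, with 18 fallen and 5 risen on average by limma. Another 16 named members did not reach the floor in sfr6. UF3GT counts both here and in the flavonoid list, and IAGLU both here and in the auxin list. UGT78D1 and UGT78D2 of the flavonoid list and UGT74B1 of the glucosinolate list are also UDP-glycosyltransferases. The decreases in these lists are therefore not fully separate evidence. UGT73C1 read 32.1 in sfr6 dark and 141 in sfr6 light (4.39-fold lower), UGT76E11 read 61.3 in sfr6 dark and 226 in sfr6 light (3.70-fold lower), and UGT71B1 read 32.0 in sfr6 dark and 104 in sfr6 light (3.24-fold lower). IAGLU, which conjugates the auxin indole-3-acetic acid, read 82.7 in sfr6 dark and 318 in sfr6 light (3.85-fold lower). The increases lay in other subfamilies or beside decreased relatives. UGT71C2 read 82.4 in sfr6 dark and 24.1 in sfr6 light (3.42-fold higher) and UGT71C5, which acts on abscisic acid, read 117 in sfr6 dark and 56.3 in sfr6 light (2.08-fold higher). UGT85A4 read 64.9 in sfr6 dark and 14.6 in sfr6 light (at least 2.93-fold higher), and all 4 measured UGT85 genes were above 0. UGT76C2, which inactivates cytokinins, read 129 in sfr6 dark and 56.4 in sfr6 light (2.29-fold higher), against 66.3 in wild type dark and 54.8 in wild type light.

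Other detoxification and defence families followed. All 9 measured tau glutathione transferase genes were below 0, GSTU20 at 139.8 in sfr6 dark and 663 in sfr6 light (4.74-fold lower) and GSTU25 at 64.4 in sfr6 dark and 167 in sfr6 light (2.60-fold lower) by over 2-fold, and with GSTL3 7 of 10 fell on average by limma. Of 9 CYP71B cytochrome P450 genes, 2 were lower, CYP71B26 with 97.0 in sfr6 dark and 412 in sfr6 light (4.25-fold lower) and CYP71B35 with 34.5 in sfr6 dark and 73.7 in sfr6 light (2.14-fold lower).

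Glucosinolates are sulphur-rich defence compounds of the cabbage family. In sfr6, 5 of 7 measured genes of their synthesis, transport and control were lower in dark and none was higher, and 6 fell on average by limma. BCAT4, the aminotransferase that starts methionine chain elongation, read 31.3 in sfr6 dark and 182 in sfr6 light (5.82-fold lower). AOP1, a dioxygenase gene of the side-chain AOP family, read 29.4 in sfr6 dark and 91.0 in sfr6 light (3.09-fold lower), and UGT74B1, which glucosylates the core structure, read 89.6 in sfr6 dark and 222 in sfr6 light (2.48-fold lower). The regulators MYC4 and MYC3 differed in sign: MYC4 read 26.9 in sfr6 dark and 63.9 in sfr6 light (2.38-fold lower) and MYC3 read 118 in sfr6 dark and 72.2 in sfr6 light. The transporter GTR2 gave -0.69 beside -2.82 for GTR1.

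Among 6 nitrogen and sulphur genes, APS3, an ATP sulphurylase gene, was lower with 55.1 in sfr6 dark and 117 in sfr6 light (2.13-fold lower), and OASA2, of cysteine synthesis, was higher with 81.4 in sfr6 dark and 28.3 in sfr6 light (2.88-fold higher). In the iron list, 1 of 10 was higher and 2 were lower. bHLH121, a factor at the top of the iron deficiency cascade, read 325 in sfr6 dark and 44.8 in sfr6 light (7.25-fold higher, limma adjusted p of the average = 0.00058). PYE (POPEYE), a repressor in that cascade, read 27.7 in sfr6 dark and 76.2 in sfr6 light (2.75-fold lower), against 56.1 in wild type dark and 47.6 in wild type light. bHLH34, an activator in it, read 38.3 in sfr6 dark and 82.8 in sfr6 light (2.16-fold lower). Its relatives ILR3, bHLH104 and bHLH115 gave 0.22, 0.36 and -0.22.

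Of 16 measured bHLH genes known by symbol, 5 were lower and 1, bHLH121, was higher. Beside PYE, MYC4 and bHLH34 the lower ones were NAI1, which controls ER bodies, with 26.7 in sfr6 dark and 78.2 in sfr6 light (2.93-fold lower), and the brassinosteroid factor BIM1 with 47.7 in sfr6 dark and 102 in sfr6 light (2.14-fold lower). Of 9 bZIP genes, BZIP61 read 163 in sfr6 dark and 23.3 in sfr6 light (6.97-fold higher) beside BZIP53, and HYH was the 1 lower. The unfolded protein response factors BZIP28, BZIP60 and BZIP17 gave 0.44, -0.03 and -0.50. Of 4 WRKY genes, WRKY22, known from immunity and dark-induced senescence, read 93.2 in sfr6 dark and 13.4 in sfr6 light (at least 4.21-fold higher), while WRKY6, WRKY20 and WRKY47 stayed within 2-fold.

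Of 8 auxin genes, the homeobox gene HAT2, induced by auxin and shade, read 226 in sfr6 dark and 105 in sfr6 light (2.15-fold higher), and WES1 (GH3.5), an auxin-conjugating enzyme, read 209.6 in sfr6 dark and 81.8 in sfr6 light (2.56-fold higher). YUC2, of auxin synthesis, read 26.4 in sfr6 dark and 58.0 in sfr6 light (2.2-fold lower), and IAGLU was lower as given above. GH3.3 gave 0.33 in sfr6, at 53.3 in sfr6 dark and 42.3 in sfr6 light, and read 83.6 in wild type dark and 10.6 in wild type light (at least 3.78-fold higher). All 3 gibberellin receptor genes were above 0, GID1C at 54.2 in sfr6 dark and 25.5 in sfr6 light (2.13-fold higher), GID1A at 0.89 and GID1B at 0.38.

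Wall-sensing kinases and their peptide ligands held 3 higher and 2 lower genes of 11. FER (FERONIA), the receptor kinase for RALF peptides, read 762 in sfr6 dark and 329 in sfr6 light (2.32-fold higher), and THE1 (THESEUS1), its relative that reports wall damage, read 226 in sfr6 dark and 76.0 in sfr6 light (2.97-fold higher). RALFL22, a ligand gene of that family, read 485 in sfr6 dark and 152 in sfr6 light (3.20-fold higher). Both receptors and 1 ligand were therefore higher, while 5 of the 7 RALF-like genes were below 0. CLE41 and CLE44, peptide genes of vascular stem cell maintenance, read 48.3 in sfr6 dark and 113 in sfr6 light and 21.5 in sfr6 dark and 46.3 in sfr6 light (2.34-fold and at least 2.09-fold lower).

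Of 17 calcium and calmodulin-binding genes, SRC2, a C2-domain protein gene named for cold regulation in soybean, read 1142 in sfr6 dark and 471 in sfr6 light (2.43-fold higher), and IQD23 read 18.0 in sfr6 dark and 44.5 in sfr6 light (at least 2.01-fold lower). The other 15 were within 2-fold, near the background in which 13% of named genes lie outside it. Cold-regulated genes are of interest in sfr6, since the mutant is known for their weak induction. Of 5 measured ones, 2 were lower and 1 was higher. Beside COR15A, its neighbour in sequence COR15B read 27.5 in sfr6 dark and 55.5 in sfr6 light (2.02-fold lower), against 86.8 in wild type dark and 93.0 in wild type light. The 2 COR15 genes are close relatives, and signal shared between their probe sets cannot be told apart. The dehydrin gene LTI30 read 216 in sfr6 dark and 99.0 in sfr6 light (2.18-fold higher), against 395 in wild type dark and 374 in wild type light, so its sfr6 light signal was the low one. COR47, another dehydrin gene, gave 0.87. LEA4-5 read 12.6 in sfr6 dark and 42.7 in sfr6 light, under the floor in dark. By limma COR47 rose, and COR15A and LEA4-5 fell.

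Of 14 chaperone genes, Hsp70-2 was lower with 26.9 in sfr6 dark and 97.7 in sfr6 light (3.63-fold lower), against 43.5 in wild type dark and 49.1 in wild type light. The nucleotide exchange factor genes Fes1B and Fes1C were higher with 153 in sfr6 dark and 61.9 in sfr6 light and 135 in sfr6 dark and 53.2 in sfr6 light (2.47-fold and 2.53-fold higher), while Fes1A gave -0.71 in sfr6 and 0.69 in wild type. The family thus had members on both sides in sfr6.

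Of 43 ubiquitin and proteasome genes 39 were within 2-fold, again near the background, the exceptions being ATL8, UBC16 (128 in sfr6 dark and 61.2 in sfr6 light, 2.08-fold higher), PUB19 (4.24 in sfr6 dark and 88.5 in sfr6 light, at least 4.00-fold lower) and RHF1A (23.1 in sfr6 dark and 64.0 in sfr6 light, 2.77-fold lower). PUB19 is a U-box ligase gene of abscisic acid and drought responses. Of 20 serine carboxypeptidase and subtilase genes, 4 were lower and 1 higher, and 10 fell on average by limma. SBT1.3, a subtilase gene, read 116 in sfr6 dark and 296 in sfr6 light (2.55-fold lower), and scpl20, scpl29 and scpl35 were between at least 2.06-fold and 2.38-fold lower. SCPL34 was the exception, with 343 in sfr6 dark and 90.1 in sfr6 light (3.81-fold higher). All 6 subtilase genes were below 0.

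In membrane traffic, 3 of the 41 measured members were higher and 2 lower in sfr6 dark, a share near the 13% of all named genes. By limma 13 rose and 3 fell, where 15.6% of all named genes rose and 16.6% fell. In sfr6 31 members were above 0, against 3706 of the 7802 measured genes, and the list median was 0.18. ELC, an ESCRT-I subunit that sorts ubiquitinated cargo, read 274 in sfr6 dark and 76.8 in sfr6 light (3.57-fold higher). Of the 11 vacuolar sorting and SNF7 genes, 10 were above 0 with a median of 0.44, led by VPS9B at 0.96. The tetraspanin genes TET10 and TET8 read 162 in sfr6 dark and 54.3 in sfr6 light and 715 in sfr6 dark and 299 in sfr6 light (2.98-fold and 2.39-fold higher). TET2 was lower with 33.5 in sfr6 dark and 69.8 in sfr6 light (2.08-fold lower), as was the RAB acceptor gene PRA1.B4 with 22.6 in sfr6 dark and 106 in sfr6 light (4.71-fold lower).

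Of 21 measured genes of cell division and histones, 5 were at least 2-fold lower and none higher, and 6 fell on average by limma. In sfr6 19 of the 21 were below 0, against 4096 of the 7802 measured genes. The histone H2B genes HTB1 and HTB2 read 90.4 in sfr6 dark and 291 in sfr6 light and 47.0 in sfr6 dark and 137 in sfr6 light (3.22-fold and 2.91-fold lower). 3xHMG-box2, a chromosomal protein gene of mitosis, read 48.0 in sfr6 dark and 144 in sfr6 light (2.99-fold lower), and the spindle checkpoint gene BUB3.1 read 32.5 in sfr6 dark and 92.6 in sfr6 light (2.85-fold lower). TOPII, a DNA topoisomerase gene, read 35.2 in sfr6 dark and 91.2 in sfr6 light (2.59-fold lower in sfr6) and gave -0.38 in wild type. Of 33 cytoskeleton genes 31 were within 2-fold, where 13% of all named genes lay outside it. The tubulins TUB1 and TUA6 gave -0.98 and -0.92, and the exceptions were TRM26 (114 in sfr6 dark and 28.2 in sfr6 light, 4.04-fold higher) and PLIM2b (74.7 in sfr6 dark and 36.4 in sfr6 light, 2.05-fold higher). None of 14 Mediator and RNA polymerase genes differed by 2-fold. The 4 Mediator genes, MED9, MED31, MED6 and MED19A, gave 0.07, 0.56, 0.63 and 0.92, and the 10 polymerase subunit genes lay between -0.99 (NRPB7) and 0.21 (NRPB6A).

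The 3 root markers EXPA7, EXPA18 and PYK10 belong to the expansin and beta-glucosidase families, so they are no separate evidence on those lists. In sfr6, EXPA7 and PYK10 differed by less than 2-fold. EXPA18 was at least 1.91-fold lower in sfr6 dark. That value is a bound set by the floor, so it cannot show whether EXPA18 differed by 2-fold. EXPA7 and PYK10 gave -0.94 and -0.49, and EXPA18 read 13.5 in sfr6 dark and 42.2 in sfr6 light. The 3 had summed signals of 1865 in sfr6 dark and 2659 in sfr6 light, against 2123 in wild type dark and 3069 in wild type light. PYK10 alone read 1823 in sfr6 dark and 2562 in sfr6 light, against 2081 in wild type dark and 3004 in wild type light. The sums therefore follow PYK10 and say little on EXPA7 and EXPA18. All 3 were over the floor in sfr6 light, and EXPA18 was under it in sfr6 dark. The part of root tissue in the wall-gene differences was not tested.

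The sfr6 response was then set beside that of wild type. Of the 544 genes higher in sfr6 dark, 362 (66.5%) were also at least 2-fold higher in wild type, 534 had the same sign, and none was 2-fold lower. Over all 7802 measured genes 5953 had the same sign. The median difference of the 544 genes was 1.37 in sfr6 and 1.22 in wild type. In wild type, 493 of 7753 named genes (6.36%) were higher and 494 (6.37%) were lower. Of the 465 genes lower in sfr6 that reached the floor in wild type, 300 (64.5%) were also at least 2-fold lower there, 451 had the same sign, and 2 were 2-fold higher. Their medians were -1.31 in sfr6 and -1.26 in wild type. The wild-type arrays are separate from the sfr6 arrays, so the 2 comparisons share no sample.

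The difference between the dark responses, sfr6 minus wild type, exceeded 2-fold upwards in 96 of 8125 named genes (1.18%) and downwards in 106 (1.3%), and in 163 (1.08%) and 224 (1.48%) of 15121 probe sets. It has no test, since the 4 arrays leave no residual degree of freedom for it. Among genes over the floor on all 4 arrays the lowest value was that of AT4G34950, at -3.03. It read 41.3 in sfr6 dark and 139.8 in sfr6 light (3.39-fold lower), against 331 in wild type dark and 137 in wild type light (2.42-fold higher). AT2G41090 followed at -2.41, with 89.5 in sfr6 dark and 143 in sfr6 light, against 306 in wild type dark and 92.0 in wild type light. Next was XTH18, at -2.09. AT2G44670 read 205 in sfr6 dark and 218 in sfr6 light, against 608 in wild type dark and 194 in wild type light. The other 6 of the lowest 10 were AT2G16660, AT3G28220, AT1G27430, nad4, PYE and Hsp70-2, with differences between -1.98 and -1.68. The sfr6 dark signal was the lowest of the 4 arrays for 8 of these 10 genes and the next lowest for the other 2. The choice of these genes by the response difference favours a low sfr6 dark signal.

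At the upper end stood AT1G78995 at 1.73, with 117 in sfr6 dark and 94.3 in sfr6 light, against 55.1 in wild type dark and 147 in wild type light. AT3G12710 read 97.4 in sfr6 dark and 29.8 in sfr6 light (3.26-fold higher), against 32.2 in wild type dark and 29.9 in wild type light. TBL45 (6.08-fold higher in sfr6 and 2.16-fold in wild type) and AT3G10020 (9.42-fold and 3.60-fold) were higher by over 2-fold in both genotypes. The remaining members were AT4G35510, AT3G53100, AT3G18800, petG, AT3G58980 and AT1G21480, all at 1.33 or above. petG read 147 in sfr6 dark and 69.5 in sfr6 light, against 148 in wild type dark and 191 in wild type light, so the wild-type light signal was the highest of its 4.

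**Figure D5:**
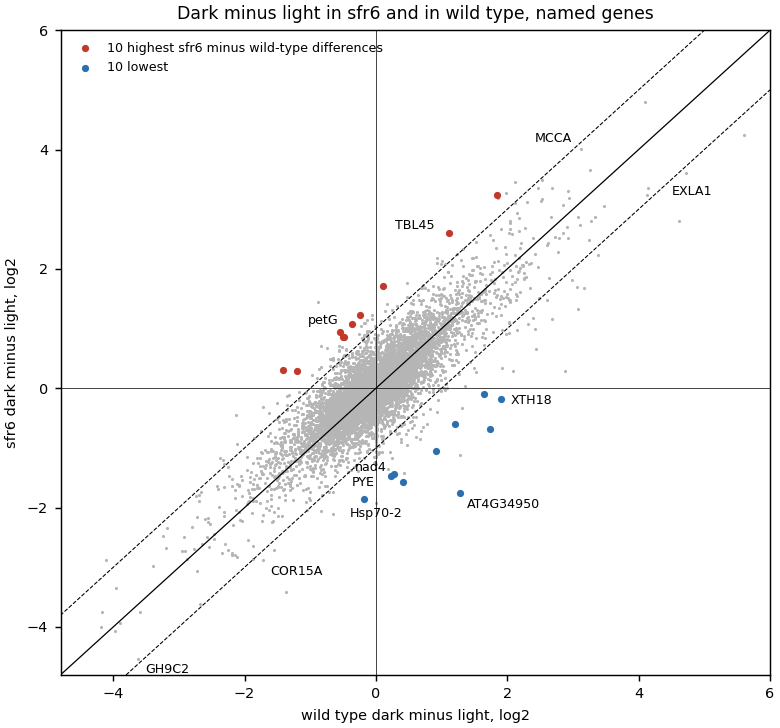
Dark minus light difference (log2) in sfr6 (vertical) against wild type (horizontal) for 7802 named genes; the solid line marks equal responses and the dashed lines a 2-fold difference between them. The 10 lowest and 10 highest response differences among genes over the floor on all 4 arrays are coloured, with AT4G34950 at -3.03 the farthest below the line.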

How the data were processed

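Each of the 4 RNA samples was hybridised, biotin-labelled, to 1 Affymetrix ATH1 array. The deposited values are intensity values on a linear scale made with MAS5, per the submitters' processing notes, which name no version; other steps are not given in the sources used here. GEO's platform annotation named a single gene for 13513 probe sets, left 8730 unnamed and gave several genes for 503; 13436 of the single-gene ones matched a RefSeq gene table (TAIR10.1, used for names). A gene with several probe sets was read from the brightest.

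From the deposited intensity values, signals under the floor (22.1, the 40th percentile) were set to it and log2 was taken. Differences of at least 2-fold count as higher or lower. The average dark effect was fitted with limma 3.58.1 in R 4.3.3 (genotype plus darkness on 4 arrays, intensity trend, prior degrees of freedom 5.15, p adjusted by Benjamini-Hochberg across 15121 probe sets, threshold 0.05). On repeated simulated data sets this fit recovered most 4-fold changes and missed most 2-fold ones. The share of false calls varied between sets and exceeded the nominal threshold in many of them. Far fewer probe sets were changed in these sets than were called in the data, so the recovered shares do not carry over. In the data, log2 averages under 2-fold also passed, such as 0.44 for LPA2 and -0.43 for GSA1. Python 3.11.15 did the rest and matplotlib 3.10.9 the figures. The number of arrays limits the precision.

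Named genes were the 20 highest and 20 lowest with a signal of at least 100, up to 4 members of each list with the largest differences, and the 10 highest and lowest response differences over the floor on all 4 arrays. Other list members were named after their values were seen. The members and the 41 lists were chosen with earlier results of these data known. Alternatives changed the floor, scaling, threshold, filter and limma trend. Promoter and protein sequences were not analysed here.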

Additional observations from a re-analysis of the deposited data

Results flagged for a closer look

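Genes that moved by at least 2-fold in opposite directions in the 2 genotypes numbered 2. AT4G34950 read 41.3 in sfr6 dark and 139.8 in sfr6 light, against 331 in wild type dark and 137 in wild type light, a response difference of -3.03 on the log2 scale. AT5G48570, listed under the synonyms FKBP65 and ROF2 (a peptidyl-prolyl isomerase of heat tolerance), read 16.4 in sfr6 dark and 48.1 in sfr6 light, against 148 in wild type dark and 60.5 in wild type light, a response difference of -2.41 or lower, since the sfr6 dark signal lay under the floor. Each genotype has 1 array per condition, so neither difference was tested.

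Outside the measured genes, the control for 25S rRNA was 11-fold higher in sfr6 dark than in sfr6 light, against 3.00-fold in wild type. The 5S ribosomal RNA control read 18.1 in sfr6 dark and 28.2 in sfr6 light. Its relation to the gene values was not tested.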

How the results depend on the processing

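Counts of probe sets were read under other floors, scalings, filters and thresholds. With the floor at the 20th percentile, 1232 probe sets were higher and 1665 lower in sfr6 dark, against 998 and 1001 in the main setting, and the response difference passed 2-fold upwards in 626 and downwards in 711. With the floor at the 60th percentile, 694 were higher and 523 lower in sfr6 dark, the response difference passed in 64 upwards and 115 downwards, and 1727 fell on average by limma. Among probe sets over the floor on all 4 arrays, 124 passed downwards. A 1.5-fold threshold gave 2241 higher and 2458 lower, and a 3-fold one gave 345 higher and 305 lower. These counts follow from how many dim signals the floor admits and from the threshold itself. The other 30 count values, which include median centring, quantile normalization, spike-in centring and a limma fit without an intensity trend, stayed within 1.5 times the main counts. The median of all probe sets was -0.05 in the main setting, -0.11 after median centring, -0.02 after quantile normalization and -0.06 after spike-in centring. The limit for a move was the SD of 0.25 over the spike-in control probe sets, which is no measure of spread between replicate arrays. Of 240 list medians computed under alternatives, 226 moved by less than this spike-in SD and 14 moved further, all with the floor at the 60th percentile. There the medians of the cold-regulated, expansin, UDP-glycosyltransferase, carboxypeptidase and subtilase, wall-sensing, gibberellin receptor and root marker lists were 0, that of glucosinolates was -0.69 and that of energy deprivation 2.36. Among genes chosen by the naming rule, 855 values under alternatives moved by less than the spike-in SD and 120 by more, 97 with the floor at the 60th percentile and 23 at the 20th. Of the 132 such genes at least 2-fold different in sfr6, 32 were under 2-fold with the floor at the 60th percentile: PGM, APL3, SAG29, SWEET13, SWEET4, rps14, CFM3B, BGLU46, CYP71B35, AOP1, OASA2, PYE, bHLH34, NAI1, MYC4, WRKY22, YUC2, GID1C, CLE41, IQD23, COR15B, Hsp70-2, PUB19, RHF1A, scpl20, PRA1.B4, TRM26, PLIM2b, BUB3.1, AT2G16660, AT3G12710 and AT3G18800. Lists with medians near 0 changed sign, 2 after median centring, 2 after quantile normalization and 1 after spike-in centring. Values near the floor are bounds, and 1 array per group leaves the spread between plants unmeasured. No paired analysis was possible because every group holds replicate 1 alone, so the groups share fewer than 2 replicate numbers.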
